A study of Mus musculus with 24 samples.

Results

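Caveolae are flask-shaped pits of the plasma membrane whose coat is built by caveolins and cavins. The 7 genes described here encode that coat and the proteins at its neck. They are the caveolins Cav1 and Cav2, the cavins Cavin1, Cavin2 and Cavin3, and the membrane-bending proteins Ehd2 and Pacsin2, found by symbol among 54232 gene identifiers of the count tables. They were chosen because Cav1 and Cav2 counts were higher in knock-in than in wild type hematopoietic libraries but not in mesenchymal ones. Every member's value in a comparison of genotypes is therefore given as a description, with no p.

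RNA was sequenced from bone marrow stromal cultures grown for 7 days and then sorted, in 4 groups of 6 libraries each. KI hematopoietic (CD45+Sca1+) and KI mesenchymal (CD45-Sca1+) cells came from mice with a knock-in on both Sh3bp2 alleles (Sh3bp2KI/KI, titled CBM). WT hematopoietic and WT mesenchymal cells came from wild type mice. All mice were C57BL/6 females of 6 to 8 weeks. Sh3bp2 encodes an adaptor protein of immune receptor signalling, and the series describes its knock-in as a model of cherubism, an inherited inflammatory bone disease of the jaw. The labels do not say whether libraries came from separate mice, so p-values describe the spread among libraries, which may be technical. The cells had been in culture before the sort, and each population is defined by its 2 surface markers alone.

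Caveolin-1, the product of Cav1, forms oligomers in the membrane, and caveolin-2 joins them and depends on caveolin-1 to reach the cell surface. Cavin-1 binds these oligomers from the cytosol and is needed for caveolae to form in all tissues, while cavin-2 and cavin-3 bind cavin-1 and modify the coat. EHD2 is an ATPase that holds the neck of the pit at the membrane. Caveolae are abundant in fibroblasts, adipocytes, muscle and endothelium, and most leukocytes have few.

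Libraries held 9875390 to 15826711 counts, and levels are given as CPM, the share of a library's counts on a per-million scale after TMM scaling. The sort showed in the RNA. Ptprc, which encodes CD45, averaged 3.13 ± 2.005 CPM in KI and 2.97 ± 1.86 CPM in WT mesenchymal libraries, against 748 ± 82.9 CPM in KI and 792 ± 71.1 CPM in WT hematopoietic libraries (SD, n = 6 each). Ly6a, which encodes Sca1, was low in all 4 groups, with means between 9.98 and 12.1 CPM. Sh3bp2 averaged 232 ± 36.5 CPM in KI and 211.6 ± 25.6 CPM in WT hematopoietic libraries (SD, n = 6 each), and these counts do not show the allele itself. Replicate 3 of each genotype's hematopoietic group stood apart with the highest stromal marker levels, so results that rest on them are given with and without them. The file names carry a number that splits each group into 2 sets of 3 libraries. No label says what the sets are, and they entered the fits as a term.

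Cav1 was the caveolar gene whose level differed most between genotypes, and it did so in hematopoietic cells. Its lowest, median and highest levels were 154, 321 and 589 CPM in KI hematopoietic libraries, against 8.35, 16.8 and 27.6 CPM in WT hematopoietic libraries. All 6 KI libraries lay above all 6 WT libraries, as they did for 4.62% of 14030 genes tested, and the mean was 19.3 times as high (337 ± 140.2 CPM in KI and 17.4 ± 6.39 CPM in WT, SD, n = 6 each). In mesenchymal cells the 2 genotypes covered the same range, with 68.1, 102 and 157 CPM in KI and 61.0, 106 and 157 CPM in WT libraries. KI hematopoietic cells thus held more Cav1 RNA than the mesenchymal cells: 5 of the 6 KI mesenchymal libraries lay below the lowest KI hematopoietic one.

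Cav2 was the second caveolin to differ, by less and with less spread. Its lowest, median and highest levels were 92.4, 103 and 129 CPM in KI hematopoietic libraries, against 28.3, 35.5 and 48.8 CPM in WT hematopoietic libraries. All 6 KI libraries again lay above all 6 WT libraries, as for 4.62% of 14030 genes tested. The mean was 2.90 times as high in KI (106 ± 14.8 CPM in KI and 36.6 ± 7.64 CPM in WT, SD, n = 6 each). Mesenchymal levels were lower than all hematopoietic ones, at 10.8, 13.6 and 18.2 CPM in KI and 13.01, 15.2 and 21.3 CPM in WT libraries. Cav2 RNA was thus a hematopoietic transcript in both genotypes, whereas Cav1 was the higher in mesenchymal cells of WT and in hematopoietic cells of KI. In bulk libraries like these, fewer cells that express a gene and less RNA per cell cannot be told apart.

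**Figure D1:**
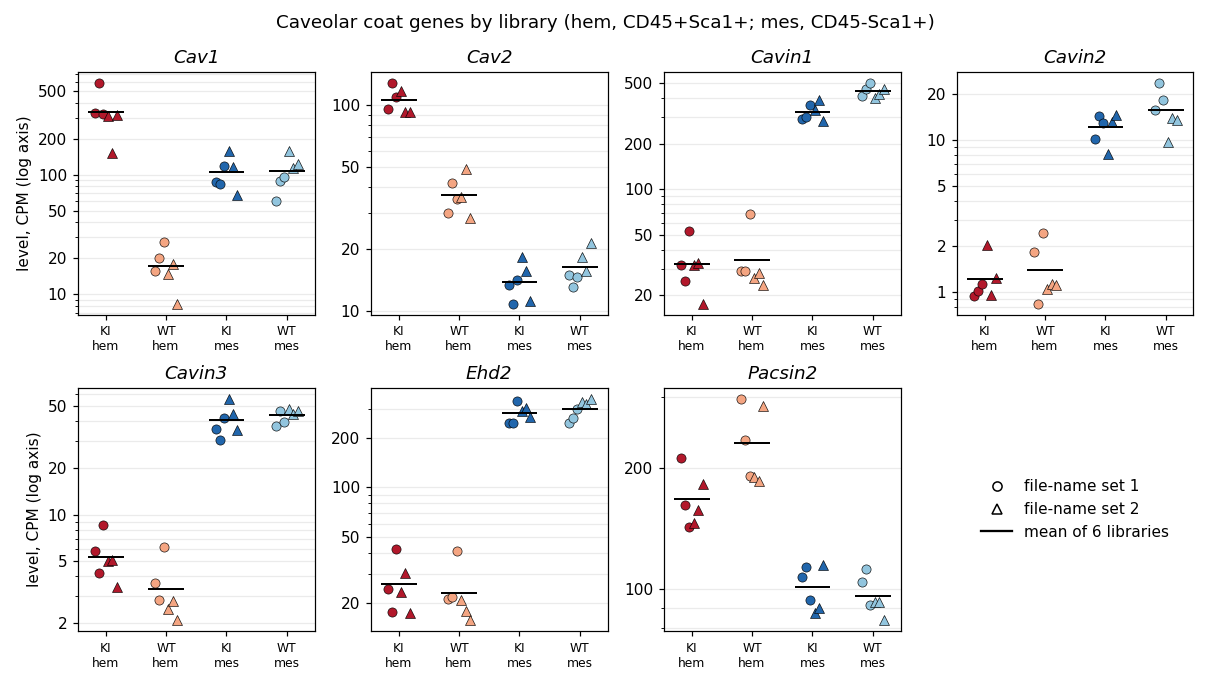
Level of each caveolar coat gene in every library, in CPM on a log axis with its own range per gene; points are libraries, spread sideways by replicate number, circles and triangles are the 2 file-name sets, and the line is the mean of 6. Cav1 and Cav2 stand above WT in all 6 KI hematopoietic libraries, while Cavin1, Cavin2, Cavin3 and Ehd2 overlap between genotypes there.

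Of the cavins, Cavin1 and Cavin2 had similar ranges in both genotypes of hematopoietic cells, and Cavin3 had a higher mean in KI. Cavin1 had a lowest, median and highest level of 17.6, 31.7 and 53.5 CPM in KI hematopoietic libraries, against 23.3, 28.5 and 68.4 CPM in WT hematopoietic libraries, and the groups overlapped. In mesenchymal libraries it reached 284, 318 and 387 CPM in KI, against 398, 442 and 504 CPM in WT. There all 6 KI libraries lay below all 6 WT libraries, as for 2.08% of 13867 genes tested, with a mean 0.733 times that of WT (326 ± 41.0 CPM in KI and 444 ± 38.8 CPM in WT, SD, n = 6 each). Cavin1 was thus the member that was lower in KI mesenchymal cells, the population in which Cav1 covered 1 range in both genotypes. The summed level of 8 adipocyte markers was lower there too, at 24.9 to 69.0 CPM in KI and 142 to 277 CPM in WT. Of these markers, 6 averaged under 1 CPM in KI and 5 in WT. The part of adipocytes in the Cavin1 values was not tested.

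Cavin2, known for sensing and bending membranes, was nearly undetected in hematopoietic libraries, with 0.948, 1.08 and 2.05 CPM in KI and 0.842, 1.13 and 2.46 CPM in WT. These values rest on 11 to 31 counts in KI and 12 to 26 counts in WT, so counting error is large. In mesenchymal libraries it had 8.13, 13.1 and 14.7 CPM in KI and 9.74, 14.8 and 23.7 CPM in WT, with overlap. Cavin3, which binds protein kinase C delta, had 3.39, 5.07 and 8.55 CPM in KI hematopoietic libraries, against 2.09, 2.79 and 6.15 CPM in WT hematopoietic libraries. Only 1 KI library lay above the highest WT library. The groups overlapped in mesenchymal libraries as well, at 30.3, 38.7 and 55.5 CPM in KI and 37.0, 45.7 and 48.1 CPM in WT. Of the merged Cavin3 exons, 22.5% lie opposite an exon of Gm45667, so reads there are uncertain without a strand setting.

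Ehd2 followed the cavins in its levels. It had 17.4, 23.8 and 42.5 CPM in KI and 15.7, 20.9 and 41.1 CPM in WT hematopoietic libraries, and 245, 279.8 and 334 CPM in KI and 245, 310.4 and 342 CPM in WT mesenchymal libraries. Genotypes overlapped in both populations. Pacsin2, an F-BAR protein that bends membranes at caveolae and in other uptake routes, was a hematopoietic transcript like Cav2 but pointed the other way. It had 143, 159.7 and 212.04 CPM in KI hematopoietic libraries, against 186, 213 and 296 CPM in WT hematopoietic libraries. Of the 6 KI libraries, 5 lay below the lowest WT library. Mesenchymal libraries held 87.1, 101 and 115 CPM in KI and 83.9, 93.0 and 112.2 CPM in WT.

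On the fitted scale, the log2 fold change of KI over WT in hematopoietic cells was 4.28 (SE 0.28) for Cav1, 1.55 (SE 0.14) for Cav2 and 0.74 (SE 0.23) for Cavin3. It was 0.20 (SE 0.24) for Ehd2, -0.05 (SE 0.26) for Cavin1, -0.15 (SE 0.33) for Cavin2 and -0.45 (SE 0.14) for Pacsin2. Of the 7 members, 3 passed as higher and 0 as lower (edgeR quasi-likelihood test, Benjamini-Hochberg adjusted p under 0.05), where 9.01% of 14030 genes passed as higher and 6.89% as lower. The genotype comparison chose the members, so nothing is read from that count. In mesenchymal cells Cavin1 passed as lower, with -0.44 (SE 0.09), and 0 of 7 passed as higher. There 3.83% of 13867 genes passed as lower and 3.44% as higher, and the other 6 members lay between -0.33 for Cavin2 and 0.08 for Pacsin2.

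**Figure D2:**
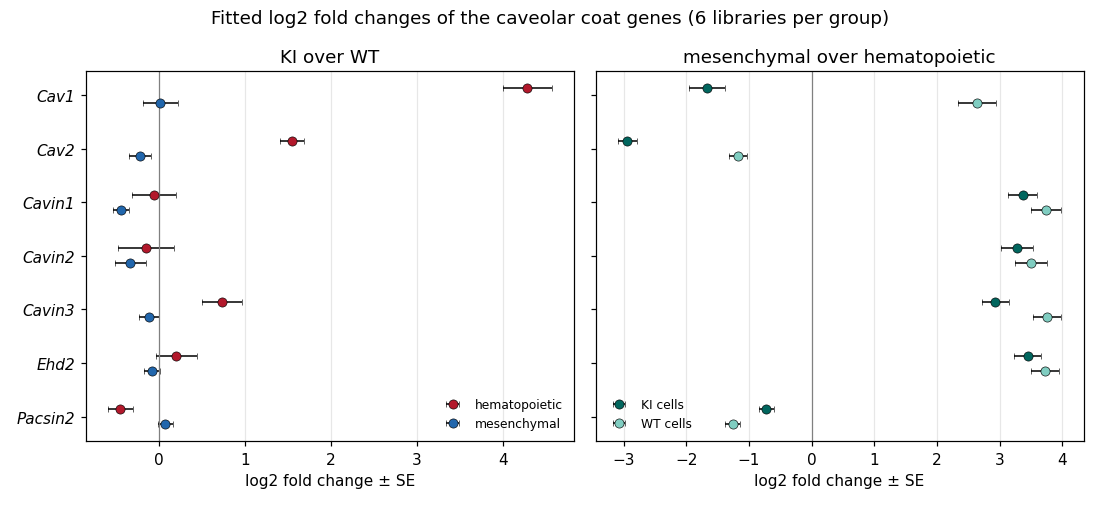
Fitted log2 fold change of each member with its SE. The left panel shows KI over WT in hematopoietic (upper points) and mesenchymal cells (lower points); the right panel shows mesenchymal over hematopoietic cells in KI (upper points) and WT (lower points). Cav1 lies at 4.28 in the hematopoietic comparison and on opposite sides of 0 on the right, at -1.67 in KI and 2.63 in WT; Cav2 and Pacsin2 lie below 0 in both genotypes there.

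The 2 sets of files gave like values for the caveolins. In hematopoietic cells the log2 fold change of Cav1 was 4.33 (SE 0.34) in set 1 and 4.25 (SE 0.40) in set 2, and that of Cav2 was 1.69 (SE 0.16) and 1.43 (SE 0.21). Mesenchymal Cavin1 was lower in both sets, at -0.55 (SE 0.14) in set 1 and -0.34 (SE 0.12) in set 2. Without replicate 3 of both genotypes the hematopoietic values were 4.44 for Cav1, 1.53 for Cav2, 0.81 for Cavin3, 0.24 for Ehd2, 0.05 for Cavin1, 0.08 for Cavin2 and -0.45 for Pacsin2, so the signs of Cavin1 and Cavin2 rested on those 2 libraries. Hematopoietic Cavin2 had opposite signs, -0.67 (SE 0.47) in set 1 and 0.37 (SE 0.40) in set 2, on the few counts given above. The interaction, KI over WT in hematopoietic cells minus KI over WT in mesenchymal cells, was 4.30 (SE 0.41) for Cav1 and 1.77 (SE 0.20) for Cav2 on the log2 scale. Both passed, and 0 of the other 5 did, where 7.28% of 15389 genes passed in either direction. Their pattern fixed the choice of members, so these interaction values too are a description.

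Markers of another cell state differed between the same hematopoietic groups as Cav1 and Cav2. The summed level of 10 osteoclast markers had a lowest, median and highest value of 2343, 4759 and 5879.8 CPM in KI hematopoietic libraries, against 298, 829.8 and 2106 CPM in WT hematopoietic libraries. Of the 10, 9 rose in KI, where 9.01% of all genes passed as higher, among them Dcstamp and Ocstamp, needed for osteoclast fusion, with log2 fold changes of 2.73 (adjusted p = 0.0014) and 3.14 (adjusted p = 0.00315, edgeR). Both calls ended in file-name set 2 alone, with an adjusted p up to 0.137. The summed level of 10 macrophage markers had a lowest, median and highest value of 4241, 5026 and 5492 CPM in KI hematopoietic libraries, against 6303, 7287 and 7907 CPM in WT hematopoietic libraries. Of the 10, 5 fell and 0 rose, where 6.89% of all genes passed as lower and 9.01% as higher. Within the KI group the osteoclast and Cav1 orders differed: replicate 5 had the lowest Cav1 level, 154 CPM, at a marker sum of 4383 CPM, and replicate 1 had 330.3 CPM of Cav1 at the lowest marker sum, 2343 CPM. In WT the orders were closer in part. Replicate 6 was lowest in the osteoclast sum (298 CPM), Cav1 (8.35 CPM) and Cav2 (28.3 CPM). Replicates 2 and 3 were above replicates 1 and 4 in the sum and in Cav1, and without replicate 3 this held for replicate 2. Of the 27.6 CPM of Cav1 in replicate 3, 20.2 CPM is the level at its stromal share, described below. In replicate 6, which had the lowest stromal share of the WT group (5.46%), that level was 5.83 of 8.35 CPM. Replicate 4 had a higher sum than replicate 1 (545 against 309 CPM) but less Cav1 (14.8 against 15.7 CPM). WT replicate 5 had the highest marker sum of its group, 2106 CPM, with 17.9 CPM of Cav1 and the highest WT level of Cav2, 48.8 CPM. The part of osteoclasts and macrophages in the Cav1 and Cav2 values was not tested.

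Markers of endothelial cells, a classic site of caveolae, had low sums. The 12 markers summed to 26.5, 29.8 and 63.9 CPM in KI hematopoietic libraries and 20.5, 29.3 and 35.8 CPM in WT hematopoietic libraries (lowest, median and highest). Cldn5 had no count in any KI hematopoietic library, Egfl7 was at most 0.0862 CPM, and 7 of the 12 averaged under 1 CPM in KI. Vwf was the 1 of 6 tested endothelial markers that passed, at 16.9 CPM on average in KI and 8.81 CPM in WT (log2 fold change 0.97, SE 0.13, edgeR adjusted p = 0.000405), a call that ended in file-name set 1 alone (adjusted p = 0.0555). Smooth muscle and pericyte markers, 8 in number, summed to 235 to 713 CPM in KI and 239 to 673 CPM in WT hematopoietic libraries, and 0 of 6 tested passed. Of all genes, 15.9% passed in either direction. The part of these cell types in the Cav1 and Cav2 values was not tested.

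The WT populations were not compared with each other in the choice, so the members were tested there. Both WT groups had, however, been the WT side of the genotype comparisons that chose Cav1 and Cav2. The p-values of Cav1 and Cav2 here are thus not independent of the choice. Mesenchymal cells were higher for 5 members and lower for 2, and all 7 passed, where 35.4% of 15389 genes passed as higher and 38% as lower. The 3 cavins and Ehd2 had log2 fold changes between 3.50 and 3.76. Their WT hematopoietic levels stood at the stromal background described below, so the size of these changes depends on it. Cavin3 was at 3.76 (SE 0.23, adjusted p = 6.35e-13), Cavin1 at 3.74 (SE 0.23, adjusted p = 1.26e-12), Ehd2 at 3.72 (SE 0.22, adjusted p = 6.34e-13) and Cavin2 at 3.50 (SE 0.25, adjusted p = 1.21e-11) in the edgeR test. Cav1 was higher too, at 2.63 (SE 0.30, edgeR adjusted p = 5.07e-08). Of its mean of 17.4 CPM in WT hematopoietic libraries, 10.5 CPM is the level at the stromal share. The size of its change thus depends on that share as well, and its place below the cavins and Ehd2 is not read.

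Cav2 and Pacsin2 were the members lower in WT mesenchymal than in WT hematopoietic cells. Cav2 was at -1.18 (SE 0.14, adjusted p = 1.2e-07) and Pacsin2 at -1.26 (SE 0.12, adjusted p = 1.95e-09) on the log2 scale (edgeR). For each of the 7, all 6 libraries of one population lay beyond all 6 of the other, which was so for 51.7% of the genes tested. The Cav1 value differed between the file-name sets, 1.98 (SE 0.29) in set 1 and 3.26 (SE 0.39) in set 2, and it passed in both. All 7 also passed without the 2 hematopoietic libraries of highest stromal share, with Cav1 then at 2.79 and Cavin1 at 4.03.

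Among KI cells the same comparison shares its mesenchymal and hematopoietic libraries with the genotype comparisons, and its values are a description. Cavin1 at 3.37, Cavin2 at 3.28, Cavin3 at 2.93 and Ehd2 at 3.45 were again higher in mesenchymal cells on the log2 scale. Cav1 lay on the other side of 0 than in WT, at -1.67 (SE 0.29), Cav2 lay further below, at -2.95 (SE 0.15), and Pacsin2 less far, at -0.73 (SE 0.12). All 7 members passed, where 73% of 15389 genes did.

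Per kilobase of merged exons, which lets genes be compared within a library, Cav1 led the coat genes in KI hematopoietic cells, at 97.9 ± 40.7 CPM per kb (SD, n = 6). Pacsin2 followed at 34.1 and Cav2 at 31.9 CPM per kb, whose ranges overlapped. Cavin1 at 8.91, Ehd2 at 5.05 and Cavin3 at 3.23 CPM per kb came next, each overlapping its neighbour, and Cavin2 was last at 0.401 CPM per kb. In WT hematopoietic cells Pacsin2 led at 46.9 CPM per kb. Cav2 at 10.98, Cavin1 at 9.47, Cav1 at 5.07, Ehd2 at 4.50 and Cavin3 at 1.99 CPM per kb formed a run in which each overlapped the next, above Cavin2 at 0.462 CPM per kb. Cav1 was thus first of 7 in KI hematopoietic cells and behind 3 other members in WT ones.

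Mesenchymal cells of both genotypes had 1 order at the top: Cavin1, Ehd2, Cav1, Cavin3, Pacsin2. Cavin1 stood at 90.8 CPM per kb in KI and 124 CPM per kb in WT libraries, Ehd2 at 54.9 in KI and 58.6 in WT, and Cav1 at 30.6 in KI and 31.0 in WT. Cavin1 and Ehd2 overlapped with no neighbour, while Cav1, Cavin3 and Pacsin2 overlapped in turn. Cav2 and Cavin2 shared the last places, at 4.15 and 4.01 CPM per kb in KI and 4.87 and 5.17 CPM per kb in WT, within each other's range.

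**Figure D3:**
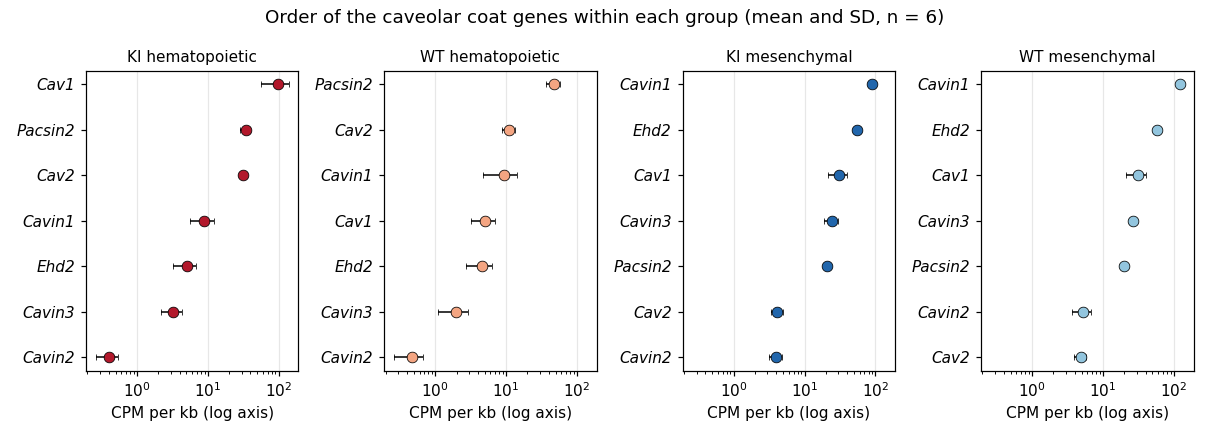
Mean level per kilobase of merged exons of each member, with its SD over 6 libraries, on a log axis, sorted within each group. Cav1 leads in KI hematopoietic cells at 97.9 CPM per kb, Pacsin2 in WT hematopoietic cells at 46.9, and Cavin1 in both mesenchymal groups at 90.8 (KI) and 124 (WT).

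Ratios within a library, which cancel its scaling, set some groups apart and not others. Cav1 over Cavin1 per kilobase was 12.6 ± 7.63 in KI hematopoietic libraries, with a range of 4.93 to 24.7, against 0.558 ± 0.138 in WT hematopoietic libraries (SD, n = 6 each). In mesenchymal libraries it was 0.334 ± 0.0833 in KI and 0.254 ± 0.0919 in WT. The ranges of both mesenchymal groups and of WT hematopoietic libraries overlapped. Hematopoietic Cavin1 stood at the stromal background described below. Ratios over Cavin1 in hematopoietic libraries are therefore not read as proportions within hematopoietic cells. Cav1 over Cav2 was 3.02 ± 0.943 in KI and 0.464 ± 0.167 in WT hematopoietic libraries, and 7.27 ± 0.965 in KI and 6.34 ± 1.48 in WT mesenchymal libraries (SD, n = 6 each). By group mean, KI hematopoietic libraries lay between WT hematopoietic and mesenchymal ones. Their range, 1.59 to 4.43, overlapped that of WT mesenchymal libraries, 3.98 to 8.35. In WT hematopoietic libraries 10.5 of the 17.4 CPM of Cav1 is the level at the stromal share. There Cav1 over Cav2 is thus not read as a proportion within hematopoietic cells either. Ehd2 over Cavin1 varied less, with group means from 0.476 to 0.606. Its lowest and highest means were those of mesenchymal libraries, 0.476 ± 0.0747 in WT and 0.606 ± 0.0466 in KI (SD, n = 6 each), with overlap. Cavin3 over Cavin1 was 0.368 ± 0.0329 in KI hematopoietic libraries, with a range of 0.339 to 0.417, against 0.213 ± 0.0275 and a range of 0.193 to 0.267 in WT hematopoietic libraries.

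Hematopoietic libraries carried stromal transcripts, and the members split on whether their levels stood at that background. The stromal share of a library was taken as the median, over 17 of 20 stromal markers, of its level relative to the mesenchymal mean of the same genotype. It was 11.2% ± 6.64 in KI and 9.86% ± 4.79 in WT hematopoietic libraries (SD, n = 6 each; two-sided exact permutation test, p = 0.658), with the highest values, 24% in KI and 19% in WT, in replicate 3 of each. Leukocyte markers in mesenchymal libraries gave a mean share of 0.656% in KI and 0.456% in WT (two-sided exact permutation test, p = 0.201).

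Cavin1, Cavin2 and Ehd2 were at the stromal share in hematopoietic libraries of both genotypes. Cavin1 stood at 9.82% of its mesenchymal mean in KI and 7.65% in WT, Cavin2 at 10.0% in KI and 8.93% in WT, and Ehd2 at 9.21% in KI and 7.69% in WT. Divided by the library's own share, these means lay between 0.794 and 1.13. Cavin3 stood at 13.2% in KI and 7.56% in WT. It exceeded the share in 5 of 6 KI libraries, by a factor of 1.31 on average, and in 0 of 6 WT libraries. Levels at this share cannot be told apart from RNA of stromal cells in the sorted fraction.

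Cav1, Cav2 and Pacsin2 stood above the stromal share in all 12 hematopoietic libraries. Cav1 reached 320.3% of its mesenchymal mean in KI and 16.3% in WT, where its level was 1.74 times the share on average and at least 1.35 times in each library. That WT excess of Cav1 was small and depends on the median over markers as the estimate of the share. In each WT library Cav2 was at least 11.4 times and Pacsin2 at least 10.4 times the share. Cav2 stood at 768% in KI and 225% in WT, and Pacsin2 at 165% in KI and 239% in WT. When the estimated stromal part was subtracted before the fit, Cav1 kept 325 ± 142 CPM in KI and 6.91 ± 3.34 CPM in WT hematopoietic libraries (SD, n = 6 each). Its log2 fold change was then 5.55, and that of Cav2 1.61. Cavin1 and Ehd2 were at 0 in all 6 WT libraries after that subtraction, and in the KI libraries Cavin1 was at 0 in 4 of 6 and Ehd2 in 5 of 6.

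**Figure D4:**
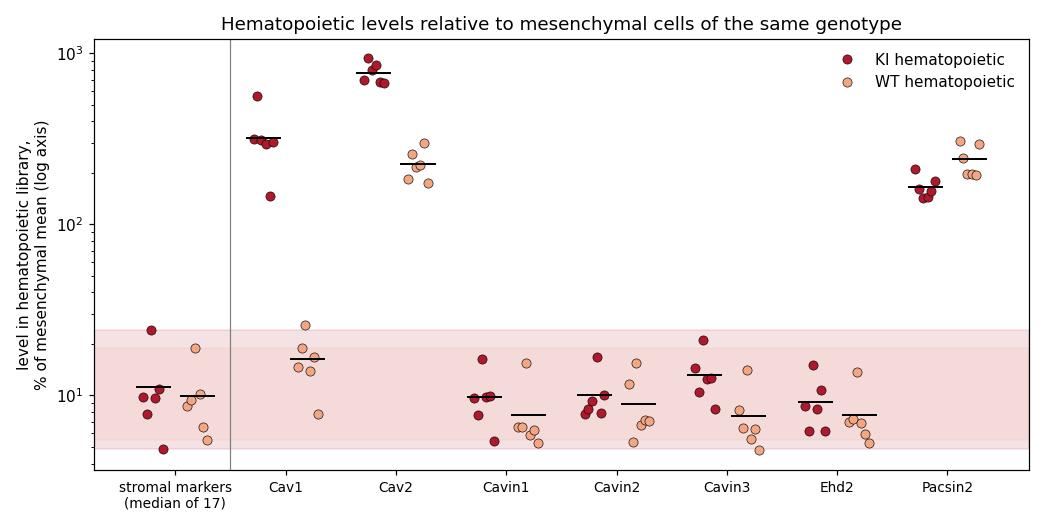
Level in each hematopoietic library as a percentage of the mesenchymal mean of the same genotype, on a log axis; the first column is the median over 17 stromal markers, the bands mark its range in KI and WT libraries, and lines are means of 6. Cavin1, Cavin2 and Ehd2 lie within or next to the bands, while KI Cav1 averages 320.3% and KI Cav2 768%.

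Cav2 and Cav1 are neighbours on mouse chromosome 6 (GRCm38), both on the plus strand. Cav2 spans 17281185 to 17289115 and Cav1 spans 17306335 to 17341452, 17220 bases further on. The other members lie elsewhere: Cavin2 on chromosome 1 (51289126 to 51302960, plus strand), Ehd2 and Cavin3 on chromosome 7 (15946958 to 15967567 and 105480083 to 105482300, both minus), Cavin1 on chromosome 11 (100956733 to 100970887, minus) and Pacsin2 on chromosome 15 (83375607 to 83464606, minus). The protein-coding neighbours of the Cav2 and Cav1 pair were tested, since the choice of members did not use them. Met, the receptor of hepatocyte growth factor, begins 122 kb beyond Cav1 and rose in KI hematopoietic cells. Its lowest and highest levels were 76.5 and 191 CPM in KI hematopoietic libraries, against 6.34 and 19.8 CPM in WT hematopoietic libraries (mean 124 ± 46.0 CPM in KI and 12.5 ± 5.61 CPM in WT, SD, n = 6 each). All 6 KI libraries lay above all 6 WT libraries, as for 4.62% of 14030 genes tested.

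The log2 fold change of Met was 3.33 (SE 0.34, edgeR adjusted p = 9.2e-05). Mesenchymal libraries had 9.78 ± 2.20 CPM in KI and 8.89 ± 1.74 CPM in WT (SD, n = 6 each), a change of 0.13 that did not pass (adjusted p = 0.716), and the interaction passed at 3.20 (SE 0.37, adjusted p = 1.88e-05). Tes, a focal adhesion protein 175 kb away on the Cav2 side, was at 0.43 (SE 0.12, adjusted p = 0.0262). That call ended without KI replicate 2 or WT replicate 1, within each file-name set, after the stromal subtraction and without both libraries of highest stromal share, with an adjusted p up to 0.454. Capza2 at -0.11, St7 at 0.11 and Tfec at -0.17 did not pass, nor did Mdfic, the third gene on the Cav2 side, at -0.00. Of the 8 protein-coding genes within 1 Mb, 5 were tested in hematopoietic cells, and 2 passed as higher, Met and Tes, and 0 as lower, where 9.01% of all genes passed as higher and 6.89% as lower.

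**Figure D5:**
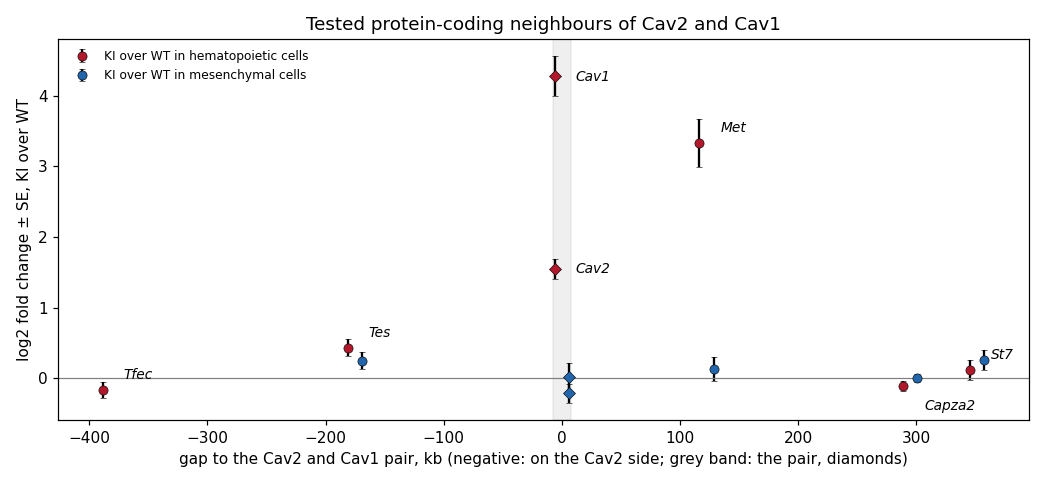
Fitted log2 fold change of KI over WT, with SE, of Cav2 and Cav1 (diamonds, grey band) and the tested protein-coding neighbours, against the gap in kb to the nearer end of the pair; points of the 2 populations are set slightly apart. Met, 122 kb away, lies at 3.33 in hematopoietic cells, and the other neighbours lie between -0.17 and 0.43 there.

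An antisense transcript, Gm15581, spans the pair from the other strand (17206823 to 17385604) and shares no exon base with either gene. It averaged 8.85 ± 4.16 CPM in KI and 0.89 ± 0.655 CPM in WT hematopoietic libraries (SD, n = 6 each). Its fitted change was 3.25 on the log2 scale (SE 0.45, edgeR adjusted p = 0.000445). The call ended in file-name set 2 alone (adjusted p = 0.0865). No source used here states the strand setting of the counting, so its reads and those of unspliced Cav2 or Cav1 RNA cannot be told apart.

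The 250 bases before the annotated starts of Cav2 and Cav1 are shown because these 2 adjacent genes were both higher in the same libraries. They are RefSeq sequence of GRCm38.p6, plus strand, with capitals for motif matches: the AP-1 motif TGANTCA and a GC box in Cav2, and a TATA box (reverse strand) and a GC box (reverse strand) in Cav1.
Cav2, chr6:17280935-17281184: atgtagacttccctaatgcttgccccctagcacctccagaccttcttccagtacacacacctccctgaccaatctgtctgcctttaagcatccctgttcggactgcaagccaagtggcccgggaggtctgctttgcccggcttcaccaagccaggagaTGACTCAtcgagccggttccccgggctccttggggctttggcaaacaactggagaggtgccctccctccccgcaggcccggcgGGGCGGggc
Cav1, chr6:17306085-17306334: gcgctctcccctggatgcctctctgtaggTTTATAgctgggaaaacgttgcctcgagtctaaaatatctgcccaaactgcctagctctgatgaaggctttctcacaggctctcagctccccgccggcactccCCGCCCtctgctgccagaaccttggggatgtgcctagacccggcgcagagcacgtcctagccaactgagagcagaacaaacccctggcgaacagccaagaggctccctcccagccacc

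Windows of 6 of the 7 members were found in the RefSeq table, and Cavin3 is named only. On both strands 7 motifs were searched: AP-1 (TGANTCA), the cyclic AMP response element (TGACGTCA), FOXO (GTAAACA), the E-box CACGTG, the PU.1 core (GAGGAA), the GC box (GGGCGG) and the TATA box (TATAAA). The AP-1 letters begin 92 bases before the Cav2 start and 54 bases before the Met start, and 152 bases before 1 of 3 Pacsin2 starts, and 6.75% of 32817 such windows hold them. The GC box letters were in the Cav2 and first Cav1 windows, and in 32.7% of all. They were also in the windows of Cavin1, Ehd2 and Met and in that of 1 of 3 Pacsin2 starts. The PU.1 core letters were in the window of the second Cav1 start and in those of Cavin1, and in 23.3% of all. The Cavin2 window held 0 of the 7. A match is a description of the letters and not a binding site.

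Genes that work beside the caveolar coat moved in both directions. Of 22 caveolar partners, 18 were tested in hematopoietic cells, and 3 rose and 5 fell in KI (edgeR adjusted p under 0.05; 15.9% of all genes passed). Their median log2 fold change was -0.15, against -0.00 over all genes tested. Src, the kinase that phosphorylates caveolin-1, rose most, with 90.6 to 173 CPM in KI hematopoietic libraries, against 7.61 to 27.3 CPM in WT hematopoietic libraries (log2 fold change 2.81, SE 0.30, adjusted p = 0.000123). Egfr, a receptor found in caveolae, rose by 0.75 (SE 0.15, adjusted p = 0.00363), a call that ended in file-name set 1 alone (0.57, adjusted p = 0.221) and after the stromal subtraction (1.36, adjusted p = 0.482). Ehd4, an EHD protein of endosomes, fell to 349 ± 59.9 CPM in KI, against 661 ± 75.8 CPM in WT (SD, n = 6 each), which is -0.91 on the log2 scale (SE 0.12, adjusted p = 0.00028). Scarb1, the receptor of high-density lipoprotein, was at -0.59 (SE 0.07, adjusted p = 0.00014). The Ehd4 and Scarb1 calls ended in file-name set 2 alone, with adjusted p of 0.0873 and 0.0607.

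The remaining caveolin and cavin, Cav3 and Cavin4, are known from muscle. Cav3 was at most 0.262 CPM in KI and 0.726 CPM in WT hematopoietic libraries, too low to be tested there. Cavin4 averaged 5.68 ± 1.95 CPM in KI and 3.19 ± 2.52 CPM in WT hematopoietic libraries (SD, n = 6 each), or 1.04 on the log2 scale (SE 0.30, edgeR adjusted p = 0.0342). That call ended in each file-name set alone, without the set term, in 1 fit of all 24 libraries, after the stromal subtraction and in 6 of 12 fits that left out 1 library (without WT replicate 1, 2 or 4, or KI replicate 2, 4 or 6), with an adjusted p up to 0.409. Its mesenchymal means were 25.7 CPM in KI and 24.5 CPM in WT.

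The clathrin coat, the other main coat of endocytic vesicles, had 1 gene that rose and 9 that fell among the 21 of 23 tested in KI hematopoietic cells, where 9.01% of all genes passed as higher and 6.89% as lower. Its median log2 fold change was -0.15. The macrophage markers given above were lower and the osteoclast markers higher in the same libraries, and their part in these counts was not tested. Hip1, which links clathrin to actin, had 127 ± 20.1 CPM in KI and 294 ± 18.1 CPM in WT (SD, n = 6 each), or -1.20 on the log2 scale (SE 0.10, edgeR adjusted p = 2.32e-05). Itsn1, an endocytic scaffold, had 445 ± 35.4 CPM in KI and 826 ± 96.9 CPM in WT (-0.88, SE 0.09, adjusted p = 6.95e-05). Dab2, a cargo adaptor, was at -0.81 (SE 0.12, adjusted p = 0.000828), a call that ended in each file-name set alone (adjusted p up to 0.0709). Epn2, an epsin, was the 1 that rose, at 28.6 ± 2.85 CPM in KI and 13.2 ± 2.003 CPM in WT (1.14, SE 0.11, adjusted p = 5.36e-05). The flotillin and raft list had 0 higher and 1 lower of 6 tested. The lower gene was Pag1, a raft adaptor that holds the Src inhibitor Csk, at -0.38 (SE 0.09, adjusted p = 0.0139). Its call ended in each file-name set alone and in 1 fit of all 24 libraries, with an adjusted p up to 0.367.

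YAP and TAZ targets and partners, which respond to membrane tension, had 0 of 9 tested genes pass in KI hematopoietic cells in edgeR, where 15.9% of all genes passed. The median log2 fold change of the 9 was 0.27. Of 9 transcription factors reported upstream of Cav1 in other cells, 0 rose and 1 fell, where 15.9% of all genes passed in either direction. It was Foxo3, at -0.48 (SE 0.13, adjusted p = 0.0231). That call ended in 4 of 12 fits that left out 1 library (without WT replicate 6, or KI replicate 2, 3 or 4) and in each file-name set alone.

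In mesenchymal cells 5 of 20 partners passed in KI, 4 higher and 1 lower, where 7.27% of all genes did. Src was higher by 0.43 (SE 0.07, adjusted p = 0.00323), at 109 ± 7.65 CPM in KI and 80.9 ± 6.59 CPM in WT (SD, n = 6 each). Fyn, another Src family kinase, was higher by 0.88 (SE 0.19, adjusted p = 0.0148), and Tgfbr1 was lower by -0.35 (SE 0.06, adjusted p = 0.00385). Of 20 clathrin genes 1 rose and 2 fell, with Hip1 at -0.86 (SE 0.11, adjusted p = 0.000613, edgeR). Pag1 rose in this population, by 0.92 (SE 0.14, adjusted p = 0.002), and of 9 YAP and TAZ genes Axl (0.47, adjusted p = 0.0129) and Ajuba (0.43, adjusted p = 0.025) rose. In file-name sets alone, which hold 3 libraries per group, the Src, Tgfbr1, Pag1 and Axl calls ended in both sets and the Fyn call in set 2, with adjusted p up to 0.144 for Src, 0.153 for Tgfbr1, 0.0866 for Pag1, 0.152 for Axl and 0.328 for Fyn. In 1 fit of all 24 libraries the Src call (adjusted p = 0.254) and the Axl call (adjusted p = 0.132) ended too, and with no filter on low counts the Fyn call (adjusted p = 0.0614). The Ajuba call ended in 5 of the 12 fits that left out 1 library (without WT replicate 1, 4 or 6, or KI replicate 1 or 2) and in each file-name set alone.

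Between WT populations the lists differed in direction. Of 9 YAP and TAZ genes, 8 were higher and 0 lower in mesenchymal cells, among them Amotl2 at 3.48 and Yap1 at 3.58 (edgeR adjusted p = 2.4e-12 and 3.27e-12). Their median of 3.48 was near the 3.50 of the caveolar coat members, against -0.03 over all genes. The cavins and Ehd2 stood at the stromal share in WT hematopoietic libraries, 9.86% on average. Changes between populations depend on that share for such genes, so nothing is read from the nearness of these medians. Of 21 clathrin genes 4 were higher and 14 lower, led by Dab2 at -4.50 (adjusted p = 8.27e-18). Of 20 caveolar partners 9 were higher and 10 lower, with Cd36 at -8.21 and Tgfbr1 at -2.39 (adjusted p = 6.6e-17 and 1.77e-17). Of 6 flotillin and raft genes 0 were higher and 4 lower, with Stom at -2.70 (adjusted p = 6.18e-17). The share of all genes that passed was 73.5%.

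The genes whose levels ran most like Cav1 over the 24 libraries were Src, Col18a1, Stac2, Myo1d and Ptgfrn. Likeness was the root mean square distance of log2(CPM + 1) after centring each gene, over 12564 genes. It was 0.67 for Src and 0.79 for Ptgfrn, in log2 units. Col18a1, a collagen of basement membranes, averaged 166 CPM in KI and 24.1 CPM in WT hematopoietic libraries, and 123 CPM in KI and 133 CPM in WT mesenchymal libraries. For Cav2 the nearest were Cd101, Xpr1, Gnptab, Cryzl2 and Card14, at distances of 0.24 to 0.35. Cd101 itself was low, at 6.22 CPM in KI and 1.66 CPM in WT hematopoietic libraries, against 0.266 CPM in KI and 0.228 CPM in WT mesenchymal libraries. These lists describe the 24 libraries, whose 4 groups set most of the likeness.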

How the data were processed

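RNA from 24 libraries was sequenced after ribosomal RNA removal with a stranded kit, per the labels' protocols. The authors deposited raw counts of reads per gene, 1 table per library. FastQC 0.11.7, MultiQC, HTSeq 0.9.1, DESeq2 1.20.0 and GRCm38 are named in the submitters' processing notes; no source used here states the aligner or the strand setting. Of 54232 gene identifiers, 54165 matched the annotation by Ensembl ID.

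Counts were tested with edgeR 4.0.16 in R 4.3.3 (limma 3.58.1): TMM scaling, filterByExpr (minimum count 10, minimum total 15), robust quasi-likelihood fits with group and file-name set as terms, and Benjamini-Hochberg adjustment at 0.05. Each genotype comparison used 12 libraries, and population and interaction comparisons used all 24. Standard errors are the log2 fold change divided by the square root of F. Pairs of replicates differed by more than sampling noise (chi-square per degree of freedom 7.23 to 65.0), so none was merged. Libraries of 9875390 to 15826711 counts limit precision most for Cavin2. The scripts were tested on simulated data.

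Members and gene lists were chosen with earlier results of these data known. Named were the 7 members, up to 4 called genes per list and comparison by adjusted p, 3 neighbouring genes on each side, 5 genes most like Cav1 and Cav2 each, and marker genes. Gm15581, Cav3 and Cavin4 were added outside this rule, after their values were seen. Alternatives were DESeq2 1.42.0, other scaling, no filter, no set term, each set alone, 1 fit of all libraries, a replicate block, stromal subtraction and leaving out each library.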

Additional observations from a re-analysis of the deposited data

Results flagged for a closer look

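Some values stood far from the other 5 libraries of their group by Dixon's criterion, which chance meets in about 1 in 20 groups. WT hematopoietic replicate 3 had 68.4 CPM of Cavin1, where the others had 23.3 to 29.1 CPM. The same library had 6.15 CPM of Cavin3, where the others had 2.09 to 3.60 CPM, and 41.1 CPM of Ehd2, where the others had 15.7 to 21.8 CPM. Its stromal share, 19%, was also the highest of its group, and the KI hematopoietic group had its highest share, 24%, in replicate 3. KI hematopoietic replicate 4 had 2.05 CPM of Cavin2, where the others had 0.948 to 1.23 CPM.

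The effect of the knock-in differed between hematopoietic and mesenchymal cells for several genes beside the members (edgeR interaction, adjusted p under 0.05). The interaction was 3.20 on the log2 scale for Met and 2.91 for Gm15581, the transcript opposite Cav2 and Cav1. Among caveolar partners it was 2.36 for Src, 0.49 for Tgfbr1, -0.63 for Abl1, -0.65 for Ehd4 and -1.31 for Fyn. Among clathrin coat genes it was 1.38 for Epn2, -0.66 for Eps15, -0.70 for Dab2, -0.75 for Ap2a2 and -0.88 for Itsn1. It was -1.30 for Pag1, -1.02 for Axl and -0.50 for Foxo3, and the Foxo3 call ended in 15 of 24 fits that left out 1 library. In each file-name set alone the Gm15581, Dab2, Eps15 and Axl calls ended. The Ap2a2, Itsn1, Fyn and Ehd4 calls ended in set 2 alone and the Tgfbr1 call in set 1 alone, with adjusted p between 0.0506 for Itsn1 and 0.546 for Ehd4 in these 5.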

How the results depend on the processing

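All 7 members passed between WT populations under every alternative run, and no called result changed sign. Uncalled member values did: hematopoietic KI over WT in 6 of 21 alternatives for Cavin1 and 3 of 21 for Cavin2, mesenchymal KI over WT in 7 of 20 for Cav1 and 1 of 20 for Ehd2, and the interaction in 2 of 31 for Cavin2 and 1 of 31 for Ehd2. Within file-name set 1 alone, KI over WT gave 672 genes in hematopoietic cells (main 2231) and 391 in mesenchymal cells (main 1008), and the interaction 180 (main 1121); pathway genes called were 7 (main 20), 2 (main 12) and 8 (main 16) in the same order. Set 2 alone gave 218, 76 and 138 genes, and 5, 1 and 4 pathway genes. These fits hold 3 libraries per group. DESeq2 called 1664 genes in mesenchymal cells, and 1 fit of all 24 libraries called 7 pathway genes there; the cause was not tested. Leaving out 1 library gave 646 to 1036 genes and 6 to 11 pathway genes in mesenchymal cells. The lowest counts, 646 and 6, came without KI replicate 1, and 7 pathway genes were called without WT replicate 1 or WT replicate 6. Leaving out both libraries of highest stromal share, chosen after seeing the data, gave 1612 genes in hematopoietic cells.

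With the replicate block, KI over WT called 3315 genes in hematopoietic and 1258 in mesenchymal cells. By deviations from group means, same-numbered libraries correlated at 0.0851 to 0.522 in hematopoietic and -0.0459 to 0.419 in mesenchymal cells, over 0.1 in 5 of 6 pairs each, and best with their own number in 3 of 6 and 2 of 6, so the numbers were not taken as pairs. By deviations from group and file-set means, which match the fitted terms, hematopoietic pairs correlated at 0.105 to 0.479, over 0.1 in 6 of 6 and best with their own number in 4 of 6, and mesenchymal pairs at 0.0158 to 0.438, over 0.1 in 4 of 6. A pairing of the hematopoietic libraries is thus not settled by these values.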
